A study of Homo sapiens with 9 samples.

Results

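Of the 57773 annotated features in the files, 6 genes linked to oestrogen action were described together: ESR1, GREB1, TFF1, TFF2, TFF3 and CA12. They were taken by name, with earlier results of these data known, ESR1 as the gene of the oestrogen receptor alpha and the other 5 as genes known to respond to oestrogen in breast cancer cells. All 6 were found once by name, and their values are the total reads assigned to each gene in each library. The libraries came from HepG2, an established line from a human hepatocellular carcinoma that keeps many functions of the liver cell. The compound under study was TBOEP, tris(2-butoxyethyl) phosphate, which serves as a plasticiser and flame retardant and belongs to the organophosphate esters. Control cultures (3 libraries) had the solvent alone, and 3 libraries each came from cultures with 2.5 µM and with 125 µM of the compound; exposure lasted 72 h, and the medium of all 9 cultures held 0.1% DMSO. Replicates were separate from seeding to sequencing, with separately made solutions, both concentrations were free of cytotoxicity, and all cells grew in medium with foetal bovine serum, all per the labels. All groups are the same cell line below passage 25 of culture, and no group was given an oestrogen or an oestrogen antagonist.

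Oestrogen receptor alpha is a transcription factor that is switched on by oestradiol and binds DNA at oestrogen response elements, inverted repeats of the letters GGTCA. Trefoil factors are small, stable peptides that mucus-producing epithelia secrete together with mucins, and TFF1 was first described as an RNA induced by oestrogen in breast cancer cells. GREB1 is a chromatin-bound partner of the receptor, and CA12 is a membrane carbonic anhydrase that interconverts carbon dioxide and bicarbonate at the cell surface and is abundant in receptor-positive breast tumours.

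The 4 genes that could be tested moved in different directions. TFF1, TFF3 and CA12 were higher at 125 µM than in controls, by 7.18-fold, 2.69-fold and 11.1-fold, while GREB1 was 1.47-fold lower. TFF1 and TFF3 were also higher at 2.5 µM, by 2.75-fold and 2.55-fold. ESR1 and TFF2 had too few reads to be tested, with 8 and 29 reads over all 9 libraries.

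Reads assigned to genes ranged from 2480964 to 11885877 a library, so that 3 reads correspond to between 0.252 and 1.21 CPM. CPM values are reads scaled to library size by TMM, and tests are those of edgeR's quasi-likelihood fit over 12901 genes with Benjamini-Hochberg adjustment and a threshold of 0.05. Of the 13 hepatocyte markers all were tested, and their summed level was 73595 to 96796 CPM in controls, 66536 to 77877 at 2.5 µM and 49933 to 55640 at 125 µM. Of 12 luminal breast markers PRLR alone was tested, and PGR, TFAP2C, SCGB2A2, PIP and AGR3 had no read; their summed level was 25.3 to 42.1 CPM in controls, 34.0 to 44.1 at 2.5 µM and 26.7 to 29.7 at 125 µM. Of 10 goblet cell markers FCGBP alone was tested, and CLCA1, ZG16, GKN1 and GKN2 had no read; the sums were 27.3 to 69.2, 14.1 to 27.9 and 12.6 to 15.2 CPM. Of 8 fibroblast markers PDGFRB alone was tested and 4 had no read, with sums of 19.98 to 23.9, 18.3 to 26.8 and 9.63 to 13.6 CPM. PDGFRB made up most of these sums, with means of 22.3 CPM in controls, 20.8 at 2.5 µM and 12.2 at 125 µM. Of 8 endothelial and blood cell markers 4 had no read, with sums of 2.31 to 5.87, 3.16 to 4.69 and 4.04 to 4.90 CPM. The part of these levels in the results was not tested. The intron share of nuclear gene reads was 6.14 to 7.24% in controls, 4.93 to 7.74% at 2.5 µM and 4.91 to 5.50% at 125 µM. In bulk RNA such as this, fewer cells with a transcript and less of it per cell cannot be told apart.

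ESR1, the receptor gene, lies on chromosome 6 at 151977826 to 152450754 on build hg19 and has 13629 bases of exon. Control libraries 1 to 3 had 1, 1 and 0 reads of it, those at 2.5 µM had 5, 1 and 0, and those at 125 µM had 0, 0 and 0. Of the 8 reads 7 lay in introns and 1 in an exon, and none spanned an exon junction. The last 7.94 kb of the 473 kb of ESR1 are shared with SYNE1, and reads there cannot be assigned to ESR1 with certainty. At 125 µM the absence of reads allows up to 0.132 CPM over the group, a limit of 3 reads that covers counting error only. The 6 reads at 2.5 µM, 5 of them from 1 library, were above that number of reads, and the 2 in controls were below it. No change of ESR1 was measurable at this depth.

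Most other receptors of the class gave too few reads for a test, while ESRRA was read deeply. ESR2, the oestrogen receptor beta, had 16 reads over the 9 libraries, ESRRG had 1 and the progesterone receptor PGR had 0. Of 7 receptor genes in the list 3 were tested. ESRRA, the oestrogen-related receptor that drives genes of mitochondrial energy metabolism and binds no oestradiol, rose from 40.4 ± 4.60 CPM (mean ± SD, n = 3 libraries, as in all such values here) in controls to 51.7 ± 2.45 at 125 µM (log2 fold change 0.34 ± 0.10 SE, adjusted p = 0.0149); at 2.5 µM it stood at 40.8 ± 1.05 CPM. GPER1, a membrane receptor for oestrogen, fell from 3.16 ± 1.01 to 1.62 ± 0.824 CPM at 125 µM (log2 -1.30 ± 0.39, adjusted p = 0.0156), with libraries of the groups overlapping; DESeq2 called none of the receptor genes lower. Both overlap another gene (TRMT112 and C7orf50), and reads shared between the pairs are uncertain.

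TFF1, the trefoil factor of the stomach surface and the member with the most graded response, lies on chromosome 21 at 43782391 to 43786703 (hg19), with 3 exons of 551 bases in all. Its reads numbered 16, 29 and 9 in control libraries 1 to 3, then 84, 83 and 26 at 2.5 µM and 151, 286 and 64 at 125 µM. As CPM these were 1.68, 5.74 and 2.31 CPM in controls, 8.03, 7.71 and 10.5 CPM at 2.5 µM, and 18.3, 23.7 and 23.5 CPM at 125 µM. Every library at 2.5 µM lay above every control, and every library at 125 µM lay above every library at 2.5 µM. Control library 2 stood well above the other control libraries, but below the lowest treated library. The group means were 3.24 ± 2.19, 8.75 ± 1.53 and 21.9 ± 3.06 CPM.

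TFF1 rose at 125 µM by a log2 fold change of 2.84 ± 0.29 (95% interval 2.22 to 3.47, adjusted p = 9.69e-06), which placed it 35 by size of rise among the 12901 genes. At 2.5 µM it rose by 1.46 ± 0.32 (interval 0.77 to 2.15, adjusted p = 0.0138). The step between the concentrations was itself past the threshold, with 125 µM higher by 1.38 ± 0.24 (interval 0.86 to 1.90, adjusted p = 0.00184). Without control library 2 the rises were 3.53 at 125 µM and 2.14 at 2.5 µM on the log2 scale. Without control library 1 the rise at 2.5 µM was 0.97 and did not pass the test (adjusted p = 0.109), and on log2(RPKM + 0.5) with limma neither the rise at 2.5 µM (adjusted p = 0.0774) nor the step between concentrations passed (adjusted p = 0.0939).

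The reads of TFF1 were those of a spliced transcript: exon-exon reads numbered 22 of 54 in controls, 83 of 193 at 2.5 µM and 225 of 501 at 125 µM, and introns held 1.85, 0.518 and 2.00% of its reads. Per length of exon, TFF1 was at 5.66 ± 3.93 RPKM in controls, 15.5 ± 2.84 at 2.5 µM and 38.9 ± 5.20 at 125 µM. In controls 61.3% of the tested genes had a lower mean RPKM, and at 125 µM 93.6% did.

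**Figure D1:**
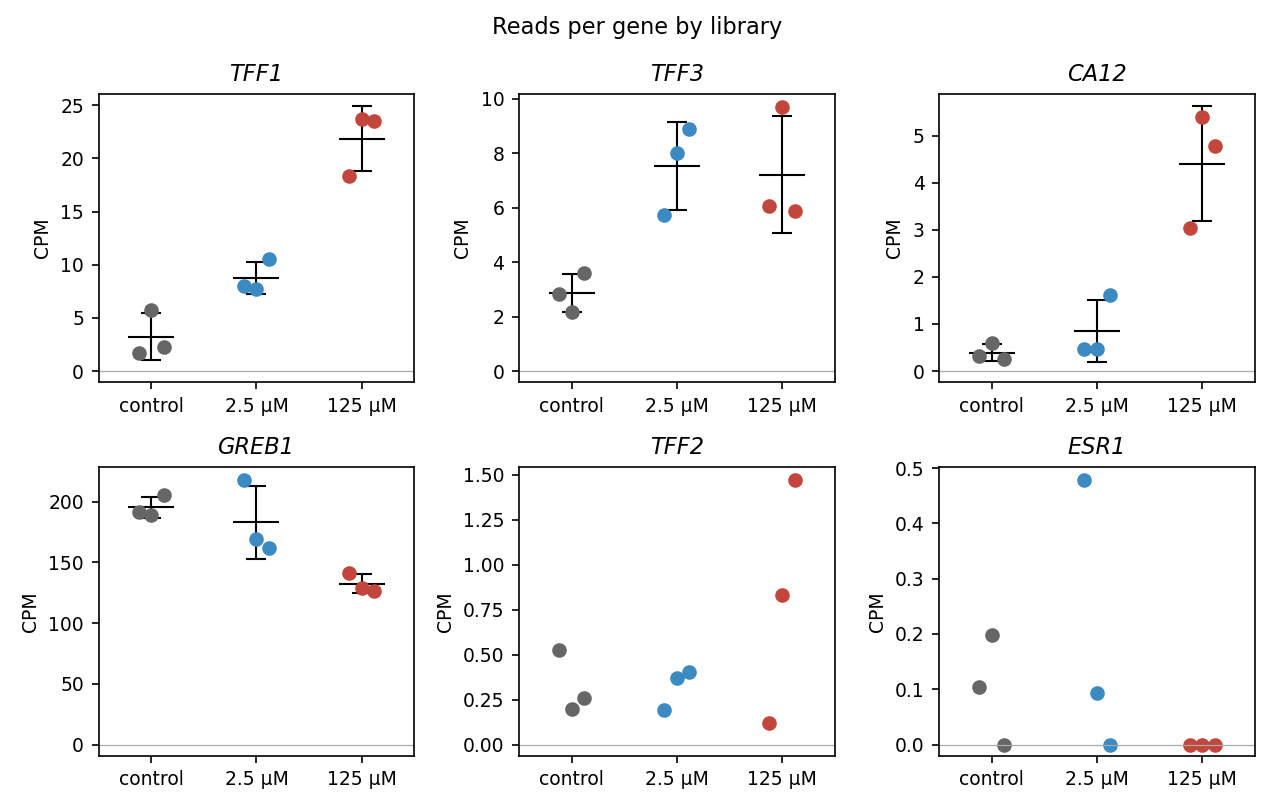
Reads per gene in each library as TMM-scaled CPM (linear axis, 1 panel per gene, each with its own range) for control, 2.5 µM and 125 µM TBOEP; points are libraries, and bars are the mean and SD of 3, left out for TFF2 and ESR1, which had too few reads to be tested. TFF1 climbs from 3.24 to 8.75 and 21.9 CPM with no overlap, TFF3 is at like levels at both concentrations, CA12 stands apart at 125 µM, and GREB1 is lowest at 125 µM.

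TFF3, the trefoil factor of intestinal goblet cells that is also secreted by receptor-positive breast cells, lies on the same chromosome at 43731777 to 43735761, with 1164 bases of exon. Its reads numbered 27, 11 and 14 in controls, 60, 86 and 22 at 2.5 µM, and 50, 117 and 16 at 125 µM. These were 2.83, 2.18 and 3.59 CPM in controls, 5.74, 7.99 and 8.89 CPM at 2.5 µM, and 6.07, 9.71 and 5.87 CPM at 125 µM. All 6 treated libraries lay above all 3 controls, and the libraries of the 2 concentrations were interleaved.

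TFF3 rose by a log2 fold change of 1.43 ± 0.28 at 125 µM (interval 0.83 to 2.03, adjusted p = 0.00115) and by 1.35 ± 0.29 at 2.5 µM (interval 0.74 to 1.96, adjusted p = 0.0113). Between the concentrations the difference was 0.07 ± 0.24 with an interval of -0.43 to 0.58 (adjusted p = 0.878), so a step of the size seen for TFF1 lay outside the interval. The rise at 2.5 µM did not pass without control library 1 (1.35, adjusted p = 0.0644) or on log2(RPKM + 0.5) with limma (1.19, adjusted p = 0.0517). Exon-exon reads numbered 16, 60 and 52 in the 3 groups, and introns held 13.5, 12.5 and 14.2% of its reads.

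TFF2, the spasmolytic trefoil peptide of the gastric glands, lies between the others at 43766466 to 43771237. It had 5, 1 and 1 reads in controls, 2, 4 and 1 at 2.5 µM, and 1, 10 and 4 at 125 µM, and it did not reach the filter for testing. The groups overlapped, from 0.198 to 0.524 CPM in controls, 0.191 to 0.404 at 2.5 µM and 0.121 to 1.47 at 125 µM. Pooled over libraries and scaled by depth, its reads at 125 µM were 1.80 times those of controls, with a 95% interval of 0.690 to 5.21 that covers counting error only, and at 2.5 µM they were 0.799 times (0.239 to 2.67). These intervals hold both no change and a rise like that of TFF3. Introns held 46.7% of its reads at 125 µM.

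The 3 trefoil genes sit within 54.9 kb of chromosome 21, in the order TFF3, TFF2 and TFF1, with gaps of 30.7 kb and 11.2 kb. Of 12 other genes of the surrounding region in the files, 7 were tested: 3 rose and 1 fell at 125 µM, where 40.2% of all genes passed, and 1 rose at 2.5 µM, where 11.0% did. TMPRSS3, a membrane serine protease whose midpoint lies 17.8 kb from the start of TFF1, rose from 3.45 ± 0.467 to 7.08 ± 1.17 CPM at 125 µM (log2 1.14 ± 0.22, adjusted p = 0.00101); at 2.5 µM it was at 4.64 ± 0.574 CPM (adjusted p = 0.267). PDE9A, a phosphodiesterase that degrades cyclic GMP, 348 kb away, rose from 19.3 ± 1.27 to 26.2 ± 1.60 CPM at 2.5 µM and 30.0 ± 3.22 CPM at 125 µM (log2 0.45 ± 0.12 and 0.67 ± 0.12, adjusted p = 0.0294 and 0.000503); DESeq2 did not call it at 2.5 µM (adjusted p = 0.0556). WDR4, a subunit of a tRNA methyltransferase, rose by 0.43 ± 0.12 at 125 µM (adjusted p = 0.0114), and PKNOX1, a homeobox factor, fell by 0.45 (SE 0.12, adjusted p = 0.00998). The median log2 fold change of the 7 was 0.24 at 125 µM and 0.08 at 2.5 µM, beside 0.00 and -0.01 over all tested genes. Between TFF3 and PDE9A, UBASH3A (11 reads over the 9 libraries), SLC37A1 (28) and RSPH1 (0) were too low to test, as was ABCG1 on the other side of TFF3 (8).

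**Figure D2:**
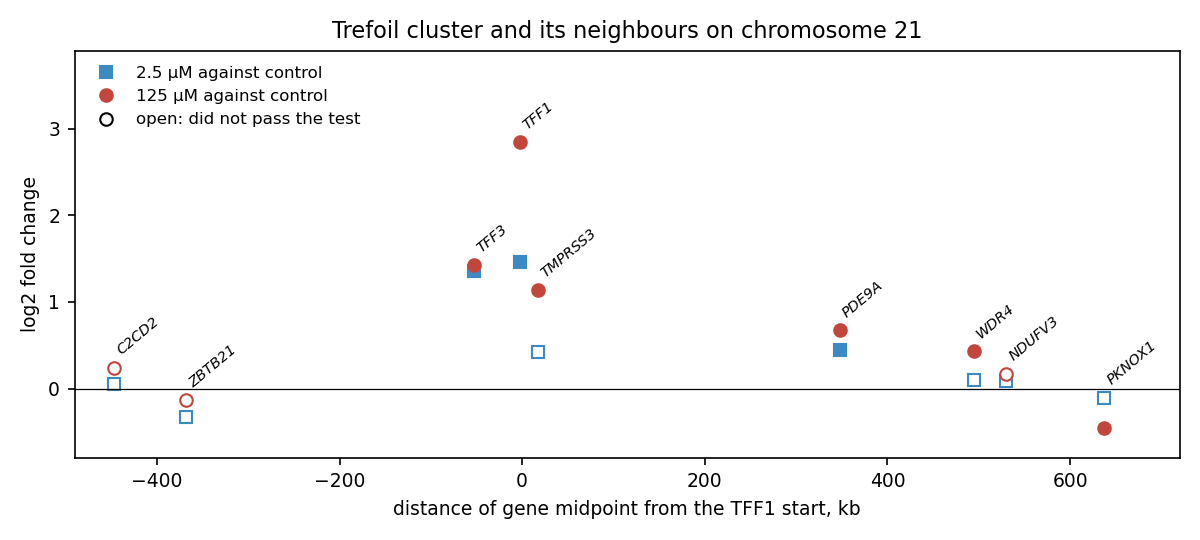
Log2 fold change (vertical axis) of the tested genes of the trefoil region against the distance in kb of each gene's midpoint from the start of TFF1 (horizontal axis, increasing along chromosome 21), for 2.5 µM (squares) and 125 µM (circles) against control; filled symbols passed the test. TFF1 at 2.84 and TFF3 at 1.43 are the highest at 125 µM, followed by TMPRSS3 at 1.14.

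CA12, the carbonic anhydrase, lies on chromosome 15 at 63613577 to 63674360 (hg19), with 7313 bases of exon. Its RefSeq promoter is shown because CA12 had the largest rise of the 6 genes and the letters bound by the receptor can be looked for in it. The sequence runs from 250 bases before to 50 after the start, on the minus strand at chr15:63381797-63382096 of GRCh38.p14, 5′ to 3′, with the match to GGTCA, an arm of the oestrogen response element, in capitals:
CA12: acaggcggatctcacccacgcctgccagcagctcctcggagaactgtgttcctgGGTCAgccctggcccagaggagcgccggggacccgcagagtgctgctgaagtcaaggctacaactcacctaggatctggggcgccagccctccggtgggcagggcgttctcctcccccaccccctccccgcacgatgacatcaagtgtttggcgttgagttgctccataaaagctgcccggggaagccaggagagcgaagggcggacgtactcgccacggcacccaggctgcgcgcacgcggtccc
The match starts at -196 from the transcription start. GGTCA on either strand is found in 37.4% of the 35116 promoters of that table, so it is a common string, and the whole element spelled GGTCANNNTGACC, which contains it and was also searched on both strands, is in 20 of them (0.057%) and not in this window. Elements with other spellings, and sites outside the window, were not searched for. ACGTG, a form of the core that hypoxia-inducible factors bind, is in 21.4% of the promoters and not in the CA12 window. Other forms of that core were not searched for, so this does not show that the window lacks the core. ESR1 has 6 promoters in the table, of which 1 holds GGTCA, 1 holds ACGTG and none holds the whole element.

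CA12 had 3, 3 and 1 reads in controls, 5, 5 and 4 at 2.5 µM, and 25, 65 and 13 at 125 µM. As CPM these were 0.315, 0.594 and 0.257 CPM in controls, 0.478, 0.465 and 1.62 CPM at 2.5 µM, and 3.03, 5.39 and 4.77 CPM at 125 µM. The libraries at 125 µM lay above all others, while those at 2.5 µM overlapped the controls, with its highest value in the shallowest library. CA12 passed the filter for testing only through the libraries at 125 µM, where it is high.

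CA12 rose at 125 µM by a log2 fold change of 3.47 ± 0.48 (interval 2.45 to 4.50, adjusted p = 8.19e-05), the rise of rank 8 among the tested genes. It was also higher at 125 µM than at 2.5 µM, by 2.82 ± 0.42 (interval 1.93 to 3.71, adjusted p = 0.000547). At 2.5 µM the difference from controls was 0.65 ± 0.68 with an interval of -0.80 to 2.10 (adjusted p = 0.574), which includes no change and a rise like that of TFF1. Pooled reads gave 12.3 times the control level at 125 µM (5.78 to 31.5, counting error only). On log2(RPKM + 0.5) the rise was 0.96, since CA12 had a mean of 0.0518 RPKM in controls and 0.581 at 125 µM, levels near or under the pseudocount. In controls 4.98% of the tested genes had a lower mean RPKM and at 125 µM 17.4% did, so CA12 remained among the weakly expressed genes.

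Of the 14 other carbonic anhydrases in the files 6 were tested, and edgeR called 0 at 125 µM in either direction (0 at an unadjusted p under 0.05, and 0 by DESeq2). Their median log2 fold change was -0.22 at 125 µM. At 2.5 µM 1 of the 6 rose and 0 fell. Over all tested genes 40.2% passed at 125 µM and 11.0% at 2.5 µM. CA9, another membrane form with its active site outside the cell, which marks low oxygen, was at 60.8 ± 4.70 CPM in controls and 61.7 ± 10.3 at 125 µM. At 2.5 µM it was higher, at 94.4 ± 18.2 CPM (log2 0.61 ± 0.14, adjusted p = 0.0168). CA9 overlaps ARHGEF39 and shares its uncertainty.

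GREB1, the receptor's partner, lies on chromosome 2 at 11674242 to 11782914 (hg19), with 12320 bases of exon, and was the most deeply read member. It had 1826, 957 and 801 reads in controls, 2277, 1824 and 401 at 2.5 µM, and 1164, 1558 and 345 at 125 µM. These were 191, 189 and 205 CPM in controls, 218, 169.5 and 162 CPM at 2.5 µM, and 141, 129 and 127 CPM at 125 µM. The 125 µM libraries lay below all others, and the 2.5 µM libraries spread to both sides of the controls.

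GREB1 fell at 125 µM from 195 ± 8.77 to 132 ± 7.79 CPM, a log2 fold change of -0.56 ± 0.11 (interval -0.78 to -0.33, adjusted p = 0.000877). It was also lower at 125 µM than at 2.5 µM, by -0.47 ± 0.11 (interval -0.70 to -0.25, adjusted p = 0.00842). The latter did not pass on log2(RPKM + 0.5) with limma (adjusted p = 0.0996). At 2.5 µM the mean was 183 ± 30.2 CPM, and the difference from controls was -0.08 ± 0.10 with an interval of -0.31 to 0.14 (adjusted p = 0.65). Exon-exon reads numbered 1010, 1264 and 943 in the groups. The intron share of its reads was 11.2% in controls, 12.7% at 2.5 µM and 7.30% at 125 µM, and on exon reads alone its call at 125 µM was kept.

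Of the 6 genes 4 were tested, and at 125 µM against control all 4 passed the threshold, 3 higher and 1 lower, where 40.2% of all tested genes passed (20.3% higher and 19.9% lower). None of the 4 had groups that overlapped in this comparison, as was so for 50.9% of all genes. At 2.5 µM 2 of the 4 passed, both higher, beside 11.0% of all genes (6.02% higher and 5.03% lower); the same 2 had groups that did not overlap, beside 28.2% of all genes. Between 125 µM and 2.5 µM 3 of the 4 passed, 2 higher and 1 lower, beside 14.9% of all genes (7.48% higher and 7.44% lower), and those 3 had groups that did not overlap, beside 32.8%. The comparisons with control share the same 3 control libraries. Since CA12 reached the test through its high group and the members are few, the counts are descriptions of these genes. On RPKM with limma, the calls over all genes at 125 µM were split into 2811 higher and 1413 lower, against 2618 and 2562 by edgeR; at 2.5 µM the splits were 171 and 45 against 776 and 649, and between the concentrations 666 and 302 against 965 and 960.

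**Figure D3:**
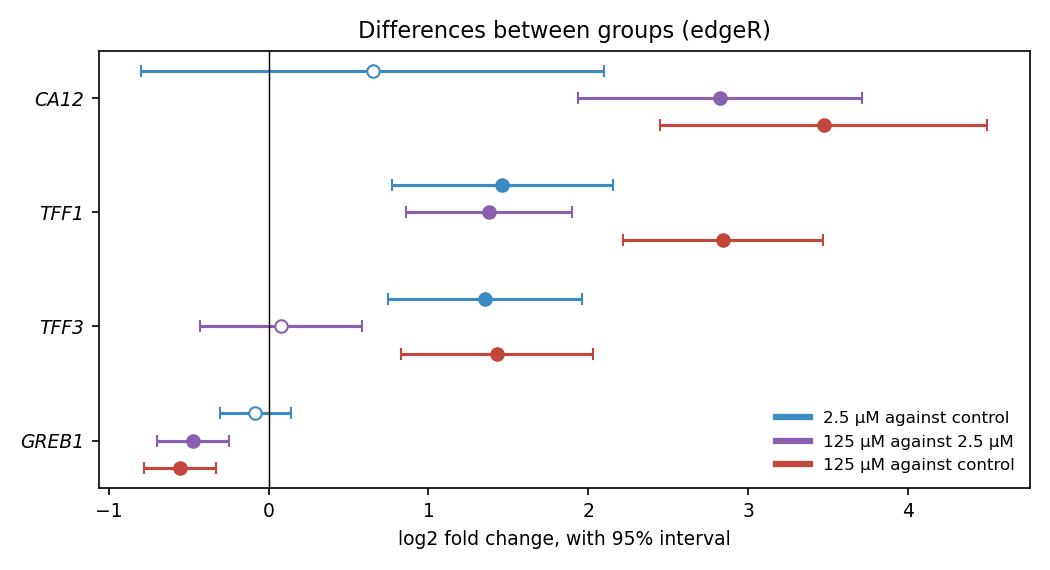
Log2 fold change with its 95% interval (horizontal axis) for each of the 4 tested genes (vertical axis) in the 3 comparisons, coloured as in the key; filled points passed the test of edgeR at an adjusted p of 0.05. The interval of TFF3 between the concentrations runs from -0.43 to 0.58 while that of TFF1 runs from 0.86 to 1.90.

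Per length, the order of the members changed with exposure. In controls GREB1 was highest at 13.6 ± 0.863 RPKM (libraries 12.8 to 14.5), above TFF1 (2.83 to 10.1) and TFF3 (1.71 to 2.52), with no overlap between these neighbours. At 2.5 µM TFF1 (13.3 to 18.8 RPKM) and GREB1 (11.4 to 14.99) overlapped, and TFF3 was lower (4.14 to 6.09). At 125 µM TFF1 (32.9 to 42.2 RPKM) stood above GREB1 (9.63 to 10.6), which stood above TFF3 (4.45 to 7.13). CA12 (0.383 to 0.704 RPKM) and TFF2 (0 to 0.891) overlapped at 125 µM, as they did in controls (0.0334 to 0.0819 and 0 to 0.470), and ESR1 was lowest in each group. These RPKM values rest on exon reads, and those of TFF2 and ESR1 on a few reads.

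**Figure D4:**
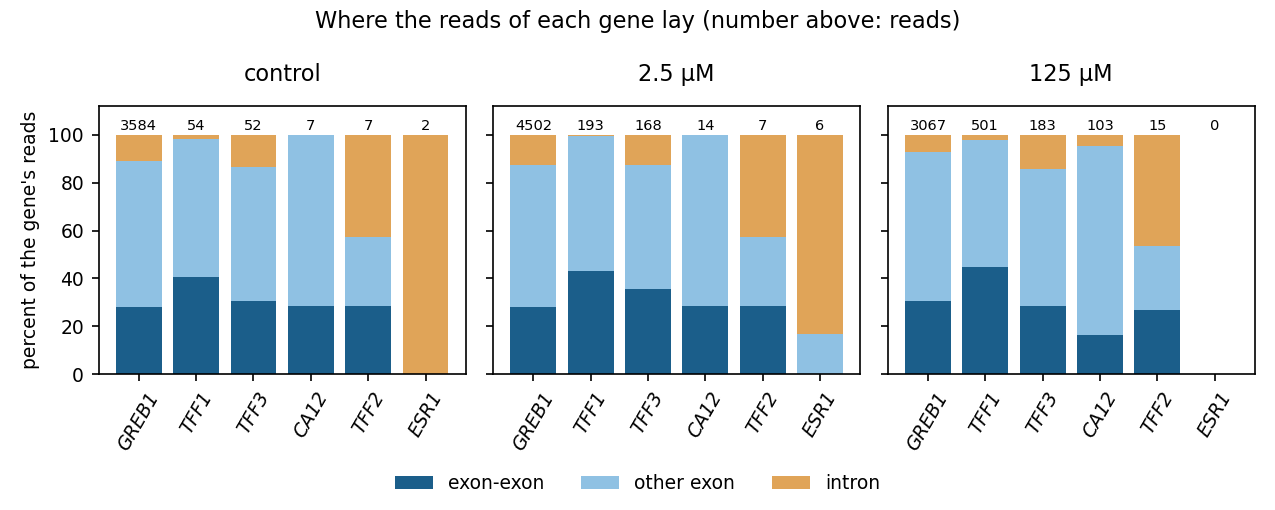
Share of each gene's reads (vertical axis, percent) that spanned an exon junction, lay elsewhere in exons or lay in introns, per gene (horizontal axis) and group (panels), pooled over 3 libraries, with the number of reads above each bar. TFF1 is almost wholly exonic in each group, ESR1 almost wholly intronic with 2, 6 and 0 reads, and TFF2 near an even split.

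Over the 9 libraries, which share the group differences, the log2 CPM of TFF1 and CA12 had a Pearson correlation of 0.904, that of TFF1 and TFF3 0.700, and that of CA12 and TFF3 0.582; GREB1 had -0.941 with CA12, -0.824 with TFF1 and -0.569 with TFF3. Among 12812 genes with at least 1 CPM on average, those most like TFF1 were ELF3 (0.988), an epithelial transcription factor, STEAP1 (0.986), a metalloreductase family protein of the cell membrane, and LIAS (0.985), the lipoic acid synthase. ELF3 stood at 30.4, 43.8 and 57.6 CPM in controls, 2.5 µM and 125 µM. Those most like TFF3 were ATRAID (0.978), IFT52 (0.974), a protein of ciliary transport, and COA4 (0.972), an assembly factor of cytochrome oxidase. Those most like CA12 were TEP1 (0.983), a telomerase-associated protein, OSGIN2 (0.983) and TMEM144 (0.981), and those most like GREB1 were TIA1 (0.986), an RNA-binding protein of stress granules, RP1-69D17.4 (0.984) and TCEA3 (0.980), a transcription elongation factor. Correlations of at least 0.95 were found with 130 genes for TFF1, 121 for CA12, 30 for GREB1 and 20 for TFF3. They describe libraries of 3 groups and differ in depth behind each gene.

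The other genes of the pathway were taken from 8 lists, whose 104 tested genes counted once held 22 that rose and 34 that fell at 125 µM, and 10 that rose and 12 that fell at 2.5 µM. Over all genes 20.3% rose and 19.9% fell at 125 µM, and 6.02% rose and 5.03% fell at 2.5 µM. The share of rises in the lists at 125 µM was near that of the background. Their shares of falls at 125 µM and of rises and falls at 2.5 µM were above it, in lists chosen with earlier results of these data known. Calls at 2.5 µM changed with the libraries in the fit: of the 15 named here that passed, 0 passed by edgeR without control library 1 (all 15 had an unadjusted p under 0.05), 5 without library 3 at 2.5 µM and 8 without control library 3, and 1 passed on RPKM with limma. Without control library 1 the folds of 14 of the 15 moved by 1.5 times or less, and their adjusted p ranged from 0.0505 to 0.204; that of HSD17B8 went from 2.03 to 1.44 on the log2 scale. Of the 31 named that passed at 125 µM, 26 to 31 passed under each alternative, and those lost under some were GPER1, GATA6, PKNOX1, WDR4, ESRRA and SULT1E1. None of the named genes that passed changed sign under an alternative.

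The wider set of genes known to be induced by oestrogen in breast cancer cells did not move to one side. Of 50 genes in the files 35 were tested, of which 8 rose, 10 fell and 17 did not pass at 125 µM. At 2.5 µM 4 rose and 4 fell. Among all tested genes 20.3% rose and 19.9% fell at 125 µM, and 6.02% and 5.03% at 2.5 µM, so a near-even split was also that of all genes. The median log2 fold change was -0.04 at 125 µM and 0.00 at 2.5 µM. KRT19, a keratin of duct epithelia, rose from 74.7 ± 15.9 to 132 ± 35.1 CPM at 2.5 µM and 217 ± 19.7 at 125 µM (log2 0.81 ± 0.18 and 1.56 ± 0.17, adjusted p = 0.0125 and 1.77e-05). TSKU, a secreted leucine-rich protein, rose from 37.5 ± 5.34 to 54.9 ± 5.41 and 95.3 ± 2.30 CPM (log2 0.55 and 1.37, adjusted p = 0.00983 and 1.73e-06).

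In the other direction, RAB31, a small GTPase of vesicle traffic, fell from 14.4 ± 2.25 to 6.51 ± 1.86 CPM at 2.5 µM and 2.25 ± 0.0522 at 125 µM (log2 -1.09 ± 0.20 and -2.68 ± 0.24, adjusted p = 0.00792 and 3.43e-06). IL17RB, a receptor chain for interleukin 25, fell from 240.2 ± 41.9 to 146 ± 30.1 and 87.1 ± 7.72 CPM. ELOVL2, which elongates polyunsaturated fatty acids, fell from 224 ± 16.4 to 174 ± 20.5 and 139 ± 12.2 CPM. All 5 of these genes passed the test at both concentrations with all libraries in the fit, each with the larger difference at 125 µM.

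Of 20 partners and coregulators of the receptor 17 were tested, and 4 rose, 5 fell and 8 did not pass at 125 µM, with 1 rise and 3 falls at 2.5 µM. Over all genes 20.3% rose and 19.9% fell at 125 µM, and 6.02% and 5.03% at 2.5 µM. The rises of the list were near these shares, while its falls were above them, on few genes. The median log2 fold change was -0.20 at 125 µM and -0.15 at 2.5 µM. GATA3, TFAP2A and TFAP2C, factors that act with the receptor in breast cells, had 1, 0 and 0 reads. EP300, a histone acetyltransferase, fell from 129.7 ± 17.7 to 95.3 ± 9.08 CPM at 2.5 µM and 81.0 ± 10.6 at 125 µM (log2 -0.44 and -0.67, adjusted p = 0.0278 and 0.000441). NRIP1, a corepressor of nuclear receptors that oestrogen induces, fell at 125 µM from 118 ± 12.2 to 88.5 ± 1.53 CPM (log2 -0.42 ± 0.09, adjusted p = 0.0019). SAFB, a corepressor that overlaps SAFB2, fell from 141 ± 14.2 to 107 ± 9.30 CPM (adjusted p = 0.00354). PHB2, a mitochondrial scaffold and corepressor that overlaps EMG1, rose from 111 ± 9.91 to 157 ± 2.55 CPM (adjusted p = 0.00039), and PIAS3, a SUMO ligase that overlaps NUDT17, rose from 8.74 ± 0.154 to 13.7 ± 1.57 CPM (adjusted p = 0.00554).

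Of 21 enzymes and carriers that make, inactivate or move oestrogens 16 were tested, of which 5 rose, 5 fell and 6 did not pass at 125 µM, and 3 rose and 2 fell at 2.5 µM. Over all genes the shares were 20.3% and 19.9%, and 6.02% and 5.03%. HSD17B8 and HSD17B2, dehydrogenases that can oxidise oestradiol to oestrone, rose at 125 µM: HSD17B8 from 1.34 ± 0.902 to 4.93 ± 0.642 CPM (log2 2.17 ± 0.36, adjusted p = 0.000358) and HSD17B2 from 9.32 ± 0.755 to 17.7 ± 4.46 CPM (log2 0.99 ± 0.18, adjusted p = 0.00054). HSD17B8 was already at 4.67 ± 0.339 CPM at 2.5 µM (adjusted p = 0.00792). Its controls alone were too low for the filter, so HSD17B8 reached the test through treated libraries, where it is high. HSD17B7, which acts in cholesterol synthesis and can reduce oestrone, fell from 14.9 ± 1.21 to 7.53 ± 1.13 CPM (adjusted p = 0.000324). The conjugating enzyme UGT2B7 fell from 114 ± 22.3 to 53.8 ± 3.85 CPM (log2 -1.11 ± 0.15, adjusted p = 6.99e-05). The oestrogen sulfotransferase SULT1E1 fell from 4.43 ± 0.914 to 0.724 ± 0.112 CPM (log2 -2.51 ± 0.37, adjusted p = 0.000125), but on log2(RPKM + 0.5), which rests on exon reads, its difference was -0.20 and did not pass with limma (adjusted p = 0.553). Introns held 53.6% of the control reads of UGT2B7 and 90.9% of those of SULT1E1, so these totals rest in good part on intron reads.

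Of 16 genes for plasma proteins that the liver secretes in larger amount under oral oestrogen 15 were tested. Of these 8 fell, 1 rose and 6 did not pass at 125 µM, where 19.9% of all genes fell and 20.3% rose. The median log2 fold change of the list was -0.55 at 125 µM. At 2.5 µM edgeR called 0 of 15 (5 at an unadjusted p under 0.05, and 1 by DESeq2), where 11.0% of all genes passed. SERPINA7, which carries thyroid hormone, was at 364 ± 39.7 CPM in controls, 372 ± 34.0 at 2.5 µM and 179 ± 6.88 at 125 µM (log2 -1.03 ± 0.10, adjusted p = 6.1e-06). SERPINA6, which carries cortisol, fell from 154 ± 7.48 to 108 ± 4.92 CPM at 125 µM (adjusted p = 0.000413). The fibrinogen chain FGB fell from 224 ± 35.5 to 68.3 ± 10.9 CPM and transferrin, TF, from 10846 ± 1274 to 6790 ± 13.6 CPM (adjusted p = 2.69e-06 and 0.000485). F7, a clotting factor, rose from 24.1 ± 8.92 to 41.7 ± 4.66 CPM (adjusted p = 0.00246). SHBG, which carries sex steroids and was chosen after its values were seen, was at 5.58 ± 1.42 and 5.33 ± 0.530 CPM (adjusted p = 0.931). The summed hepatocyte markers, which include FGB and TF, moved with this list, from a median of 88451 CPM in controls to 51339 at 125 µM. This sum is weighted to abundant genes such as ALB, with a mean of 35790 CPM in controls and 14390 at 125 µM. Not all markers were lower at 125 µM: APOA2 went from 1365 to 2780 CPM and AHSG from 5129 to 6648.

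**Figure D5:**
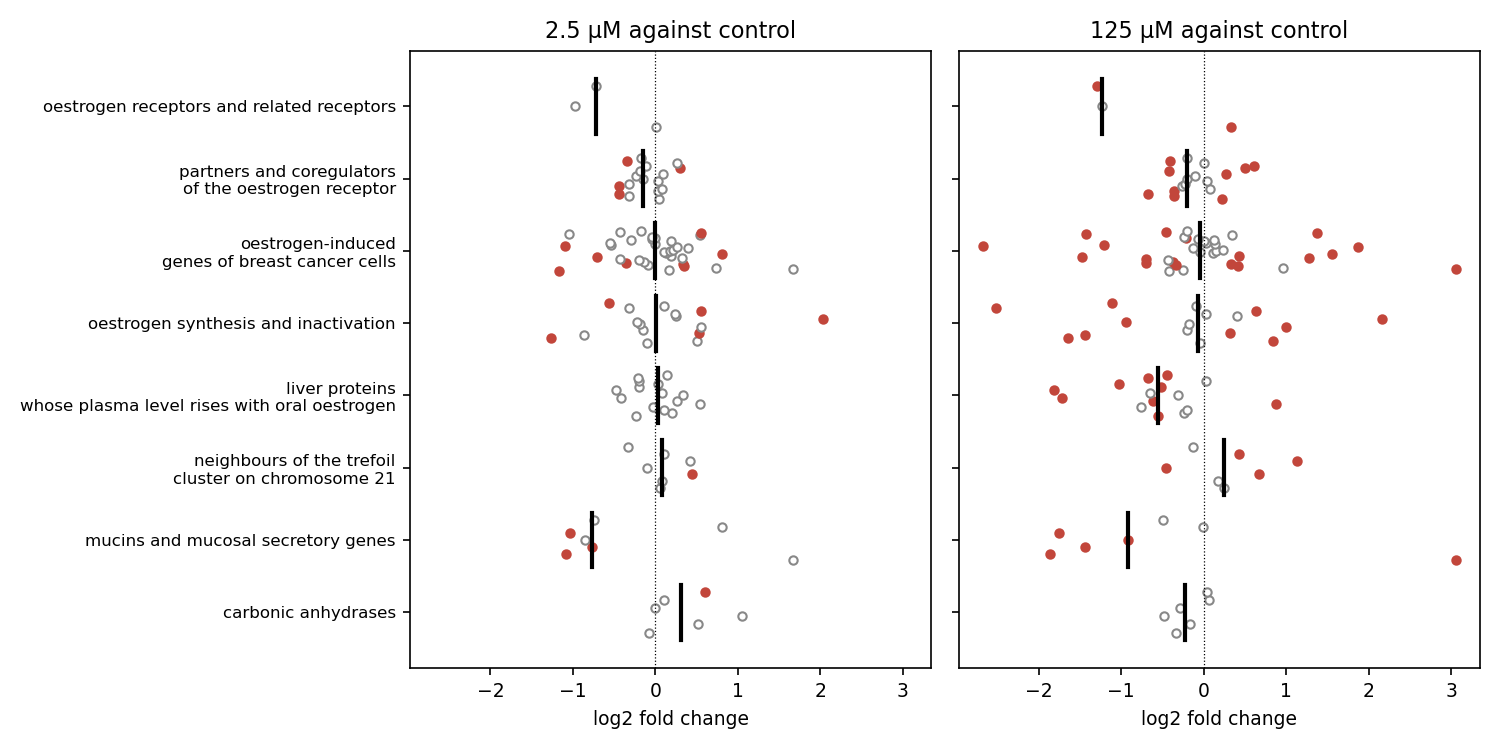
Log2 fold change (horizontal axis) of each tested gene of 8 lists (vertical axis) at 2.5 µM (left) and 125 µM (right) against control; filled points passed the test and bars are list medians. The list of breast cancer genes is spread to both sides of 0 with medians of 0.00 and -0.04, and the liver protein list has a median of -0.55 at 125 µM.

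Genes that mucous epithelia express with trefoil factors did not rise with them as a group. Of 26 genes in the files 7 were tested, and 1 rose and 4 fell at 125 µM, while 3 fell at 2.5 µM. Among all tested genes 20.3% rose and 19.9% fell at 125 µM, and 6.02% rose and 5.03% fell at 2.5 µM. The median log2 fold change of the 7 was -0.92 at 125 µM and -0.76 at 2.5 µM. MUC2 and MUC5AC, the gel-forming mucins of gut and stomach, had 2 and 4 reads over the 9 libraries. AGR2, a disulfide isomerase needed for mucin folding and itself induced by oestrogen in breast cells, rose from 0.726 ± 0.592 to 4.85 ± 0.287 CPM at 125 µM (log2 3.06 ± 0.47, adjusted p = 0.000169) and was at 2.04 ± 0.681 CPM at 2.5 µM (adjusted p = 0.0593). The controls alone were too low for the filter, so AGR2 reached the test through treated libraries, where it is high. FCGBP, a mucus protein, fell from 47.6 ± 20.99 to 21.6 ± 6.82 and 13.6 ± 1.31 CPM (adjusted p = 0.0187 and 0.000137). FCGBP, GATA4 and KLF4 had groups that overlapped at 2.5 µM, where DESeq2 did not call GATA4 (adjusted p = 0.0672) and KLF4 did not pass without control library 2 (adjusted p = 0.0748). The transcription factors GATA4 and KLF4 fell from 87.0 ± 26.5 to 33.6 ± 6.64 CPM and from 17.0 ± 5.80 to 5.62 ± 1.63 CPM at 125 µM (adjusted p = 0.000137 and 0.000875). GATA6 fell at 125 µM, from 5.76 ± 1.58 to 3.13 ± 0.916 CPM (adjusted p = 0.0198), with groups that overlapped.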

How the data were processed

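Each deposited file holds 1 library. The authors' read counts per gene (total, exon, intron, exon-exon) are raw whole numbers, per the file headers. RPKM is deposited beside them and relates exon reads to exon length and to depth, per the file headers. The aligner and counter was CLC Genomics Workbench with hg19 as genome, as the series' design text states. Neither its version nor its use of strand was given in the sources used here. Exon lengths and positions are the authors', as deposited, with 1 added to starts, which count from 0.

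Total gene reads, exon and intron together, were filtered with filterByExpr, scaled by TMM and fitted with the quasi-likelihood test of edgeR 4.0.16 (R 4.3.3) with 1 term per group over the 9 libraries; contrasts are two-sided, adjusted over 12901 genes by Benjamini-Hochberg. The common biological coefficient of variation was 10.0%. The steps were tested on simulated counts. Alternatives were DESeq2 1.42.0, limma 3.58.1 on log2(RPKM + 0.5), other scalings, filters and read classes, a replicate block and leaving out each library.

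The 6 genes and the lists were chosen with earlier results of these data known. Besides the 6, up to 5 genes a list were named, those past the threshold in either comparison with control and of smallest adjusted p, and the 3 genes most correlated with each tested member. The values of 1 untested list gene are not reported here. Reads of ATRAID, COA4, TIA1 and TMEM144 are shared with an overlapping gene to an unknown extent. P-values measure the spread between separately seeded cultures of 1 cell line. Intervals on pooled reads are exact binomial and, like floors of 3 reads, cover counting error only. Promoter sequences are those of RefSeq.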

Additional observations from a re-analysis of the deposited data

How the results depend on the processing

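At 125 µM against control all 4 tested genes passed under all 19 alternatives with the same direction: TFF1 ranged from 2.36 to 3.53 on the log2 scale, TFF3 from 1.09 to 1.59, CA12 from 0.96 to 3.82 and GREB1 from -0.60 to -0.43. Same-numbered libraries correlated at -0.241 to 0.184, which does not settle whether the replicate numbers pair the libraries. Each control library correlated best with the 125 µM library of its own number, while some of the other pairs did not. With the replicate block 4, 2 and 3 of the genes passed at 125 µM, at 2.5 µM and between the concentrations, as without it. Over all genes 5066, 1274 and 1771 passed with the block. At 2.5 µM against control 2 of the genes passed, but 0 on log2(RPKM + 0.5) with limma and 0 by edgeR without control replicate 1, with 2 at an unadjusted p under 0.05 in both; leaving out 1 library gave 0 to 2. The genes called there numbered 1425, against 216 on RPKM, 731 with only the groups compared, and 213 (without control replicate 1) to 2050 (without control replicate 2) with 1 library left out; without control replicate 3 and 2.5 µM replicate 3 they numbered 707 and 468. Between the concentrations 1 of the genes passed on RPKM, and the 1925 genes called became 968 on RPKM and 799 (without 125 µM replicate 2) to 2230 (without control replicate 2) with 1 library left out; without 2.5 µM replicate 2 and without 125 µM replicates 1 and 3 they numbered 1015, 1043 and 1252. TFF3, not called there, changed sign to -0.0110 on RPKM, -0.11 without 2.5 µM replicate 1 and -0.27 without 125 µM replicate 2, and leaving out 1 library gave -0.27 to 0.22. The causes were not tested, beyond the fewer libraries of a fit that leaves some out. CA12 at 2.5 µM was not tested with only the groups compared, and DESeq2 gave it no adjusted p, so no value is given for either. Depth limits ESR1, TFF2 and CA12 outside the 125 µM group.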
